A study of Homo sapiens with 9 samples.

Results

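The proteasome genes were followed in DU145 cells after knockdown of FZD6, a Frizzled receptor for Wnt ligands. DU145 is an established human prostate cancer line. Members were all genes whose symbol is PSMA, PSMB, PSMC, PSMD, PSME, PSMF or PSMG followed by a number, which gave 48 genes of the 27860 with a usable expression value. Of these, 46 had a mean of at least 1 FPKM, a measure of transcript abundance scaled to transcript length and library depth, and entered the test. PSMA8, the testis form of an alpha subunit, was listed at 0 in all 9 libraries, and PSMB11, the thymus form of a beta subunit, did not exceed 0.0143 FPKM in any. The 9 libraries were 3 from cells with a scrambled shRNA (scramble), 3 from cells with a first shRNA against FZD6 (shFZD6 #1) and 3 from cells with a second one (shFZD6 #2). All had the genotype WT in the labels, and all carried a lentiviral shRNA vector, the scramble cells included. The labels call each set of 3 a triplicate without saying that the cultures were separate, so the p-values measure the spread between these libraries, which may be technical. All cells came from 1 line, so the comparisons describe DU145 and no other prostate cancer cell.

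The 26S proteasome is the protease that degrades proteins tagged with ubiquitin chains. Its 20S core stacks rings of alpha subunits (PSMA genes) on rings of beta subunits (PSMB genes), and PSMB5, PSMB6 and PSMB7 carry the catalytic sites. Interferon signaling can replace these with PSMB8, PSMB9 and PSMB10, which gives the immunoproteasome that favors peptides for MHC class I. The 19S cap has a base with a ring of ATPases (PSMC genes) that unfolds substrates, and a lid of PSMD subunits that includes the deubiquitinase PSMD14. PSME genes encode alternative activators of the core, PSMF1 an inhibitor, and PSMG genes chaperones that build the alpha ring. The transcription factor NRF1, encoded by NFE2L1, is known to raise most subunit genes together when proteasome activity falls, through antioxidant response elements in their promoters.

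The libraries carried their labels. FZD6 stood at 20.9, 20.5 and 20.04 FPKM in the scramble libraries, at 9.47, 10.2 and 9.80 with shFZD6 #1, and at 7.84, 8.79 and 7.69 with shFZD6 #2, so that the groups did not overlap. Its log2 fold change was -1.12 (SE 0.085, limma adjusted p = 0.00049) for the 6 knockdown against the 3 control libraries. The epithelial markers KRT8, KRT18, EPCAM and CDH1 were all present, with control means from 4.68 to 272 FPKM, although EPCAM rose in knockdown cells (log2 fold change 0.26) and CDH1 fell (-0.28), while the prostate luminal marker KLK3 did not exceed 0.0138 FPKM. Of the leukocyte markers PTPRC and CD3E were listed at 0 in every library and CD68, also a lysosomal protein of other cells, rose from 17.4 FPKM in scramble to 22 with shFZD6 #1 and 25.4 with shFZD6 #2 (limma adjusted p = 0.00503). The fibroblast and endothelial markers COL1A1, DCN and PECAM1 did not exceed 0.455 FPKM. Depth, estimated from the confidence bounds in the files, was 33.1 to 41.4 M fragments per library.

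Relative to all mapped fragments, knockdown cells had slightly more proteasome RNA, and this difference shrank once a trend with transcript length was taken out. In the comparison of 6 knockdown with 3 scramble libraries, 23 of the 46 tested members rose, 1 fell and 22 did not pass the test (limma on log2(FPKM + 1), adjusted p under 0.05 over 12509 genes). Among all tested genes 13.5% rose and 7.1% fell. The log2 fold change was positive in 43 of 46 members, with a median of 0.13, where 58.2% of all tested genes were positive with a median of 0.03. For 24 members the 6 knockdown libraries were all above the 3 scramble libraries, and for 1 they were all below (16.4% and 9.46% of tested genes). The changes were small. They ran from -0.12 for PSME3 to 0.28 for PSMG4, and by the study's criteria of an unadjusted p under 0.01 and a 1.2-fold change, which 1.1% of tested genes passed upward and 1.78% downward, PSMG4 alone of the members passed. In bulk RNA, less RNA per cell and fewer cells of a kind cannot be told apart.

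Short transcripts had higher log2 fold changes than long ones in the whole data set. Spearman's rho of transcript length with knockdown change was -0.44 across 12295 tested genes with a length and -0.41 across the 46 members, given as descriptions, since genes of the same 9 libraries are not independent. Members are short, with a median of 1506 bases against 2643 over all. The same rho with mean FPKM in place of length was 0.19 across all these genes and 0.03 across the members. After the length trend was removed from each library, 6 members rose and 1 fell where 6.64% and 5.73% of genes did, the median of the members dropped to 0.05 (0.00 over all genes), and 39 of 46 were still positive. The 6 were PSMA5, PSMC1, PSMC4, PSMD8, PSMD13 and PSMG4. The counts also moved when single libraries were left out. There were 12 members higher without scramble replicate 1 and 12 without scramble replicate 2, against 27 without shFZD6 #2 replicate 2. The share of all tested genes called higher moved too, at 5.81%, 4.65% and 16.1% in the same order. The member median was 0.12, 0.11 and 0.13, with 43 of 46 positive each time. Quantile normalization left 11 members higher, where 8.37% of genes were higher and 8.46% lower. What lies behind the length trend was not tested.

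**Figure D1:**
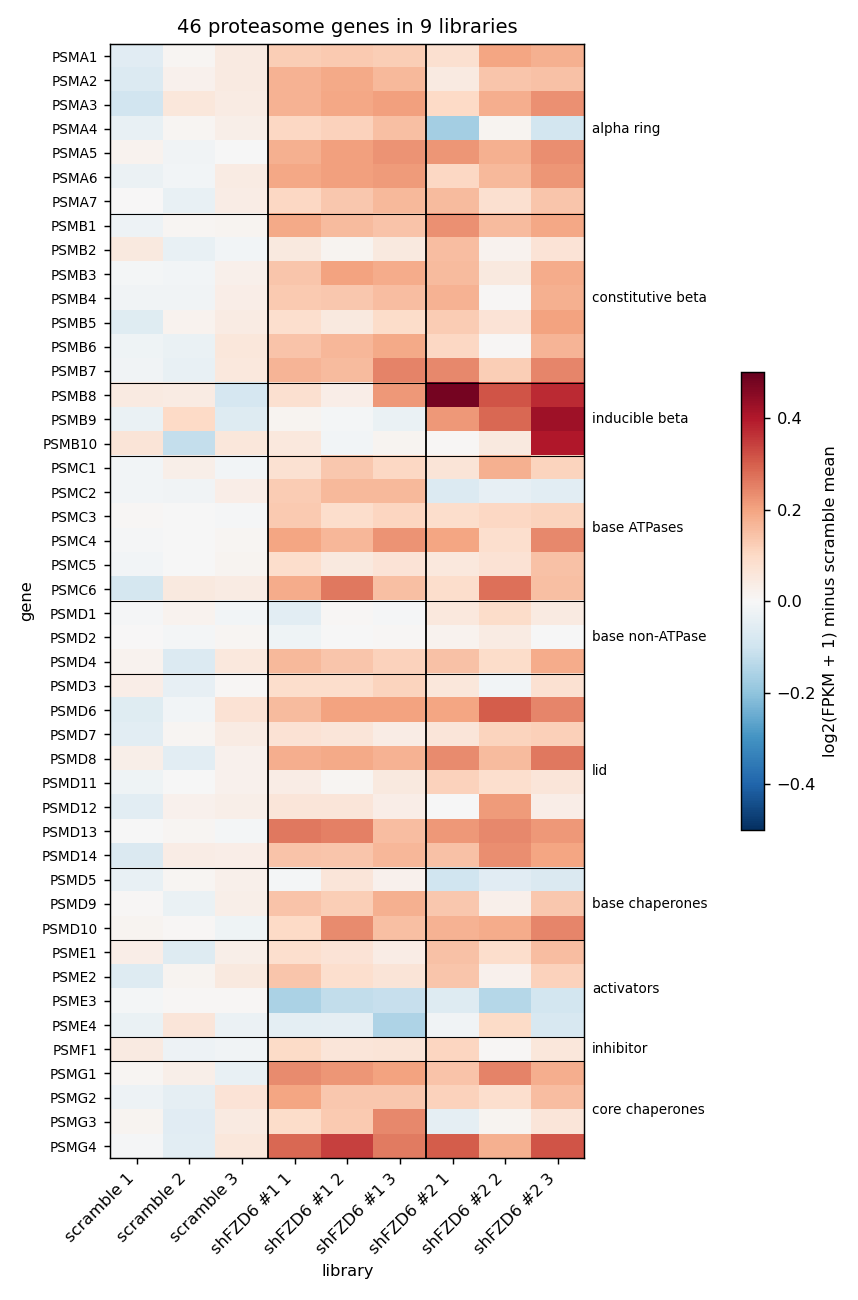
Each cell gives log2(FPKM + 1) of 1 gene in 1 library minus the mean of the 3 scramble libraries, with the 46 tested members in rows by role and the 9 libraries in columns. Most rows are red across all 6 knockdown libraries, PSME3 is blue in all 6, and PSMB8 and PSMB9 are darkest in shFZD6 #2.

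**Figure D2:**
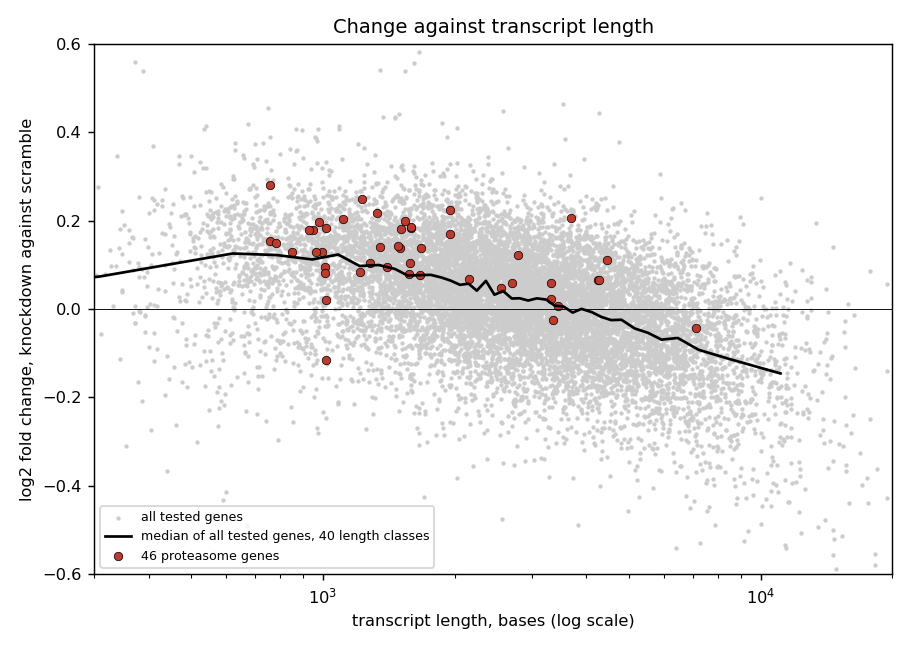
Points show the log2 fold change of knockdown against scramble by transcript length on a log scale for 12295 tested genes (grey, 483 of them outside the axes) and the 46 proteasome genes (red), and the black line is the median of all genes in 40 length classes. The line falls with length, most members lie above it, and PSME3 lies below it.

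In the alpha ring of the 20S core, which gates entry to the catalytic chamber, 6 of 7 tested members rose. PSMA5 stood at 14.8, 14.4 and 14.6 FPKM in scramble, 16.6, 17.0 and 17.2 with shFZD6 #1, and 17.2, 16.7 and 17.3 with shFZD6 #2. Its groups were fully apart from scramble and overlapped each other. The log2 fold change was 0.21 (SE 0.024, limma adjusted p = 0.00214) and did not move when the length trend was removed (0.21, limma adjusted p = 0.00508), with a length of 3682 bases assigned to it. PSMA6, the alpha subunit with the highest level, went from 293, 297 and 308 FPKM to 343, 345 and 347 with shFZD6 #1 and 322, 335 and 349 with shFZD6 #2. PSMA3 went from 131, 146 and 145 to 158, 161 and 162 and to 150, 159 and 165 FPKM. For both genes every knockdown library was above every scramble library, with log2 fold changes of 0.18 (SE 0.033 and 0.042), yet neither passed the test after the length trend was removed (limma adjusted p = 0.114 and 0.304). Of the PSMA3 FPKM 13.1% was assigned to a noncoding transcript. The coding PSMA3 transcript overlapped between groups, reaching 134 FPKM in scramble and starting at 130 with shFZD6 #1. PSMA1, PSMA2 and PSMA7 rose by 0.13 to 0.14 and kept their calls in 15, 10 and 15 of 21 alternative settings. PSMA4 was the member not called, at 0.02 (SE 0.072), and its hairpins went apart, as given further on.

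Of the constitutive beta subunits 3 of 7 rose. PSMB7, the subunit with trypsin-like activity, stood at 253, 250 and 266 FPKM in scramble, 288, 286 and 305 with shFZD6 #1, and 303, 279 and 303 with shFZD6 #2, a log2 fold change of 0.20 (SE 0.038, limma adjusted p = 0.00991). PSMB1 went from 176, 181 and 181 to 205, 200 and 198 and to 210, 200 and 205 FPKM (0.18, SE 0.027). PSMB3 went from 242.7, 242.1 and 248.98 to 269, 281 and 278 and to 273, 253 and 278 FPKM (0.15, SE 0.037). For these 3 the knockdown and scramble libraries did not overlap, and after the length trend was removed they were at 0.09, 0.07 and 0.03 (limma adjusted p = 0.0815, 0.169 and 0.406). The other catalytic subunits had smaller differences. PSMB5, with chymotrypsin-like activity and the main target of bortezomib, was at 125, 132 and 134, then 138, 135 and 139, then 142, 137 and 150 FPKM, which kept the groups apart without passing the test (0.10, SE 0.039, limma adjusted p = 0.0925). PSMB6, with caspase-like activity, was at 226, 224 and 238, then 253, 258 and 261, then 246, 230 and 259 FPKM, and passed with shFZD6 #1 (0.17, limma adjusted p = 0.0444) but not with shFZD6 #2 (0.09, limma adjusted p = 0.173). The difference between the hairpins was itself not called (-0.07, limma adjusted p = 0.421). PSMB4, which had the highest level of all members at 426 FPKM ± 8.56 (SD, n = 3) in scramble, had a log2 fold change of 0.13 (limma adjusted p = 0.0517), and PSMB2 of 0.06 (limma adjusted p = 0.294).

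The inducible beta subunits were low in these cells, and 2 of the 3 tested were higher with shFZD6 #2 alone. PSMB8 was at 8.08, 8.06 and 7.31 FPKM in scramble, 8.30, 8.02 and 9.24 with shFZD6 #1, and 11.3, 9.94 and 10.4 with shFZD6 #2. PSMB9 was at 1.24, 1.46 and 1.19, then 1.32, 1.28 and 1.25, then 1.67, 1.80 and 2.08 FPKM. In both genes the 3 shFZD6 #2 libraries were above all others, and the shFZD6 #1 and scramble libraries overlapped. Against scramble, shFZD6 #2 gave log2 fold changes of 0.39 for PSMB8 (SE 0.065, limma adjusted p = 0.00566) and 0.31 for PSMB9 (SE 0.062, limma adjusted p = 0.0106), which is 34.96% and 42.5% more FPKM, while shFZD6 #1 gave 0.11 (limma adjusted p = 0.269) and -0.01 (limma adjusted p = 0.933). Over the 6 knockdown libraries together neither gene was called. PSMB10 was at 9.05, 7.86 and 9.01, then 8.98, 8.52 and 8.71, then 8.66, 8.97 and 11.7 FPKM, and was called in none of the 4 comparisons by limma, with 1 high shFZD6 #2 library (0.08, SE 0.093, knockdown against scramble).

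Relative to their constitutive partners the inducible subunits remained minor. PSMB8 made up 5.67% ± 0.456 of the summed FPKM of PSMB5 and PSMB8 in scramble, 5.84% ± 0.346 with shFZD6 #1 and 6.88% ± 0.433 with shFZD6 #2 (SD, n = 3 each). PSMB9 made up 0.564% ± 0.076 of PSMB6 plus PSMB9, then 0.495% ± 0.022, then 0.749% ± 0.068. PSMB10 made up 3.26% ± 0.203 of PSMB7 plus PSMB10, then 2.90% ± 0.120, then 3.20% ± 0.471. The shares are descriptions without a test. Both genes lie in the MHC region (PSMB8 at chr6:32840717-32844679 and PSMB9 at chr6:32854192-32859851, GRCh38.p14), which the reference carries in several alternate copies, so that 87.5% of the PSMB8 and 87.1% of the PSMB9 FPKM came from alternate contigs. On the primary chromosome alone the PSMB8 difference between the hairpins was 0.17 on the log2(FPKM + 1) scale (limma adjusted p = 0.0497), and PSMB9 was under the 1 FPKM minimum.

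**Figure D3:**
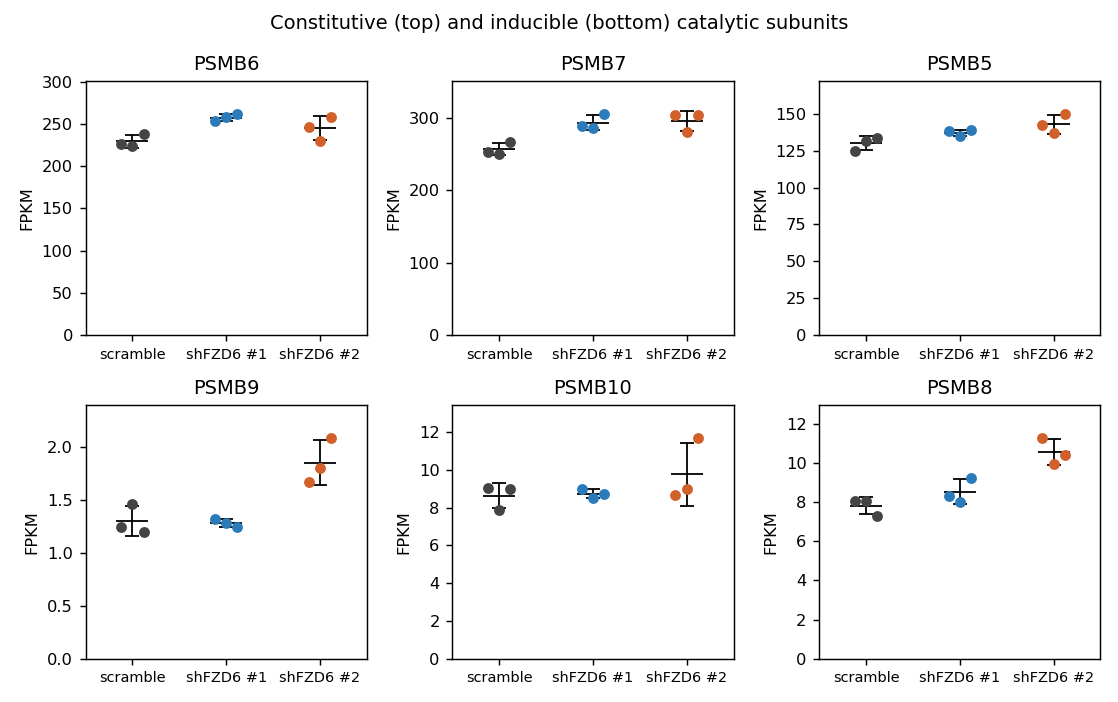
FPKM of the 3 constitutive catalytic subunits (top) and the 3 inducible ones that can replace them (bottom), with 1 point per library and the mean ± SD of 3 libraries in black; every axis starts at 0. PSMB8 and PSMB9 are higher in the 3 shFZD6 #2 libraries than in the other 6, and PSMB10 is high in 1 of them.

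Among the 6 base ATPases, 4 rose. PSMC6 was at 25.9, 28.6 and 28.4 FPKM in scramble, 31.5, 33.4 and 30.8 with shFZD6 #1, and 29.4, 33.7 and 30.8 with shFZD6 #2 (0.19, SE 0.051, limma adjusted p = 0.0336). It was called with neither hairpin alone and kept its call in 10 of 21 alternative settings. With the length trend removed it was not called (limma adjusted p = 0.248). PSMC4 went from 95.9, 96.1 and 96.8 to 111, 108 and 113 and to 110, 102 and 114 FPKM (0.18, SE 0.035, limma adjusted p = 0.00962), and PSMC1 from 90.2, 92.9 and 90.3 to 96.2, 100.1 and 98.1 and to 95.4, 103 and 98.6 FPKM (0.11, SE 0.030, limma adjusted p = 0.032). In each the 6 knockdown libraries were above the 3 scramble libraries. PSMC4 and PSMC1 kept their calls after the length trend was removed (0.10 and 0.13), PSMC1 with an assigned length of 4448 bases although coding models as short as 390 bases are annotated. PSMC3 also rose (0.11, SE 0.021), PSMC5 was at 0.08 (limma adjusted p = 0.0729), and PSMC2 differed between the hairpins.

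The large scaffold subunits of the base did not follow. PSMD1 and PSMD2, which hold the ubiquitin receptors, were at 0.02 (SE 0.034) and 0.01 (SE 0.023), and PSMD2 ranged only from 175 to 183 FPKM over the 9 libraries. PSMD4, a ubiquitin receptor itself, was at 132, 125 and 136 FPKM in scramble, 147, 144 and 142 with shFZD6 #1, and 145, 139 and 149 with shFZD6 #2, and rose by 0.14 (SE 0.033, limma adjusted p = 0.0214). PSMD1 and PSMD2 have long transcripts, 3326 and 3448 bases against 1350 for PSMD4. Part of the PSMD1 sum was a noncoding transcript, which ranged from 0.455 to 14.2 FPKM over the libraries. With protein-coding entries alone PSMD1 was at -0.14.

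In the lid 4 of 8 members rose and all 8 were positive. PSMD13 was at 52.4, 52.7 and 52.1 FPKM in scramble, 63.1, 62.6 and 58.4 with shFZD6 #1, and 61.1, 62.0 and 60.9 with shFZD6 #2 (0.22, SE 0.029, limma adjusted p = 0.00266). PSMD6 went from 40.3, 41.7 and 44.4 to 47.1, 48.6 and 48.6 and to 48.4, 52.1 and 50.1 FPKM (0.22, SE 0.040, limma adjusted p = 0.00886). PSMD8 went from 161, 152 and 160 to 179, 180 and 178 and to 186, 176 and 189 FPKM (0.20, SE 0.033, limma adjusted p = 0.00572). None of the 3 overlapped scramble, and PSMD13 and PSMD8 passed after the length trend was removed (0.16 and 0.12). PSMD14, the deubiquitinase that strips ubiquitin chains from substrates, rose by 0.17 (SE 0.035, limma adjusted p = 0.0121). PSMD3, PSMD7, PSMD11 and PSMD12 were at 0.06 to 0.08 and were not called in this comparison.

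Of the chaperones that assemble the particle, 3 of 4 for the core and 2 of 3 for the base rose. PSMG4, a partner of PSMG3 in alpha ring assembly, had the largest log2 fold change of all members. It was at 18.4, 17.7 and 19.2 FPKM in scramble, 22.7, 23.6 and 22.2 with shFZD6 #1, and 23.0, 20.97 and 23.1 with shFZD6 #2, a mean rise of 22.6% (0.28, SE 0.041, limma adjusted p = 0.00375), and it kept its call in 21 of 21 alternative settings. PSMG1 went from 62.4, 63.3 and 60.4 to 73.2, 72.3 and 71.5 and to 68.5, 73.9 and 70.4 FPKM (0.20, SE 0.031, limma adjusted p = 0.00423), of which 59.9% was assigned to a noncoding transcript. PSMG2, the partner of PSMG1, went from 82.1, 80.9 and 87.6 to 95.9, 91.7 and 91.7 and to 90.6, 88.5 and 93.0 FPKM (0.14, SE 0.035, limma adjusted p = 0.0258). PSMG3 was at 0.08 (SE 0.059, limma adjusted p = 0.355). All 3 called genes had knockdown libraries apart from scramble in summed FPKM. For PSMG2 the sum in shFZD6 #2 replicate 2 took in 8.89 FPKM of a minor transcript. The transcript with 98.8% of PSMG2 FPKM was at 79.7 in that library, below its scramble range of 80.9 to 87.0. Of the base chaperones PSMD10, also called gankyrin, went from 20.4, 20.4 and 19.97 to 21.8, 24.1 and 22.6 and to 23.0, 23.2 and 24.2 FPKM (0.18, SE 0.035, limma adjusted p = 0.0102), and PSMD9 from 17.7, 17.1 and 17.9 to 19.5, 19.2 and 20.02 and to 19.4, 17.9 and 19.4 FPKM (0.12, SE 0.035, limma adjusted p = 0.039), where 1 shFZD6 #2 library overlapped scramble. PSMD9 kept its call in 8 of 21 alternative settings. PSMD5 was at -0.03 (SE 0.039).

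Of the 4 activators 1 fell and 3 were not called. PSME3, the nuclear activator of ubiquitin-independent degradation known as PA28 gamma, was the only member that fell. It was at 89.0, 89.9 and 89.8 FPKM in scramble, 80.1, 82.2 and 82.6 with shFZD6 #1, and 85.7, 81.0 and 84.1 with shFZD6 #2, with all 6 knockdown libraries below all 3 scramble libraries (-0.12, SE 0.027, limma adjusted p = 0.0194). After the length trend was removed it was at -0.23 (limma adjusted p = 0.00322), but this rests on an assigned length of 1015 bases where the longest coding model has 3366. PSME1 and PSME2, which form the interferon-inducible activator PA28, were both above scramble without a call. PSME1 was at 68.3, 63.9 and 68.2, then 70.9, 70.03 and 68.5, then 74.0, 71.0 and 74.5 FPKM (0.10, SE 0.036, limma adjusted p = 0.0951), and rose with shFZD6 #2 taken alone (0.13, limma adjusted p = 0.033). PSME2 was at 42.5, 44.9 and 46.04, then 49.1, 47.2 and 46.6, then 49.1, 45.1 and 48.2 FPKM (0.09, SE 0.037). PSME4, the activator PA200, was at 19.3, 20.6 and 19.3, then 19.0, 19.1 and 17.6, then 19.5, 21.1 and 18.6 FPKM (-0.04, SE 0.051). As a description, the ratio of PSME3 to PSME1 was 1.34 ± 0.057 in scramble, 1.17 ± 0.038 with shFZD6 #1 and 1.14 ± 0.015 with shFZD6 #2 (SD, n = 3 each). The inhibitor PSMF1 was at 0.07 (SE 0.030, limma adjusted p = 0.158).

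**Figure D4:**
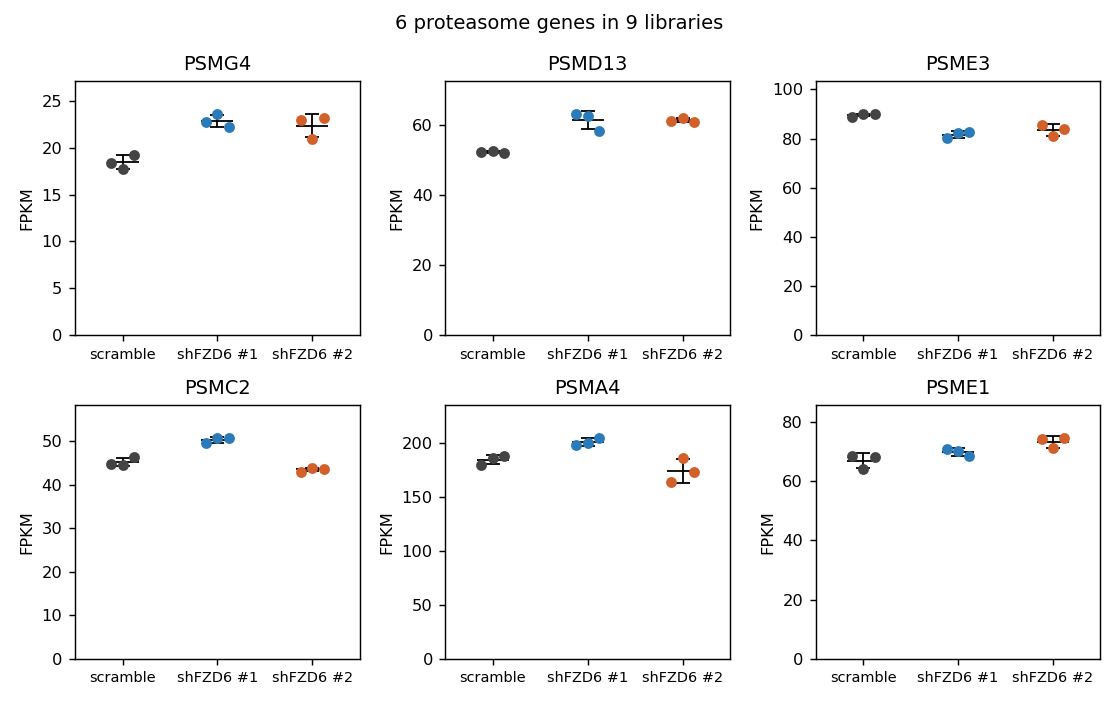
FPKM of 6 proteasome genes in the 9 libraries, with 1 point per library and the mean ± SD of 3 libraries in black; every axis starts at 0. PSMG4 and PSMD13 are higher and PSME3 lower with both hairpins, and PSMC2 and PSMA4 are higher with shFZD6 #1 than with shFZD6 #2.

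Summed over roles, the core and cap were higher with both hairpins and the activators were level. As descriptions without a test, the alpha ring went from 1031 ± 28.0 in scramble to 1155 ± 11.7 and 1113 ± 32.2, the constitutive beta ring from 1510 ± 33.0 to 1679 ± 18.7 and 1666 ± 82.5, the base ATPases from 488 ± 3.86 to 532 ± 1.58 and 526.3 ± 10.2, and the lid from 564 ± 8.41 to 618 ± 2.07 and 627 ± 6.39 (SD, n = 3 each, shFZD6 #1 before shFZD6 #2). The activators were at 221 ± 2.41, 218 ± 2.09 and 224 ± 5.17. All members together made up 0.603% ± 0.005 of the FPKM of all genes in scramble, 0.648% ± 0.010 and 0.626% ± 0.027.

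RNA levels of the members were far from equal, although most subunits of the particle occur in the same number of copies as protein. The members also include assembly chaperones, activators and inducible subunits. In scramble cells the tested members ranged from 1.30 FPKM for PSMB9 to 426 FPKM for PSMB4, with a median of 68.7 against 9.82 over all tested genes. The order within the alpha ring ran from PSMA5 at 14.6 to PSMA6 at 299 FPKM, and in the constitutive beta ring from PSMB2 at 43.9 to PSMB4. The base ATPases ran from PSMC6 at 27.7 to PSMC5 at 149 FPKM, and the lid from PSMD12 at 27.0 to PSMD8 at 158. With the members in order of level, 28 of 45 neighboring pairs had control libraries that did not overlap and 17 had overlapping ones. FPKM depends on the transcript models, and 36 of 46 members had over 90% of their FPKM in 1 entry.

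Each hairpin was also compared with scramble by itself, and since both comparisons use the same 3 scramble libraries, their likeness is no independent evidence. With shFZD6 #1, 22 members rose and 1 fell (11.7% and 7.19% of all tested genes), with a median log2 fold change of 0.14. With shFZD6 #2, 23 rose and 1 fell (15.3% and 11.4%), with a median of 0.12. PSME3 was the member that fell in each. PSMA2, PSMB6, PSMC2, PSMD9 and PSMG2 were called higher with shFZD6 #1 and not with shFZD6 #2, and PSMA1, PSMB8, PSMB9, PSMC1, PSMD11 and PSME1 the other way round, which is no evidence of a difference by itself. The shFZD6 #1 count was 7 without scramble replicate 2 or shFZD6 #1 replicate 3, 8 without scramble replicate 1 or shFZD6 #1 replicate 1, 9 without shFZD6 #1 replicate 2 and 14 without scramble replicate 3. In these fits the share of all tested genes called higher was also lower, at 4.24% to 6.95%. The shFZD6 #2 count was 12 without scramble replicate 1, 11 without scramble replicate 2 and 13 without shFZD6 #2 replicate 3. Of all tested genes 9.29%, 8.72% and 9.92% were called higher in the same order.

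**Figure D5:**
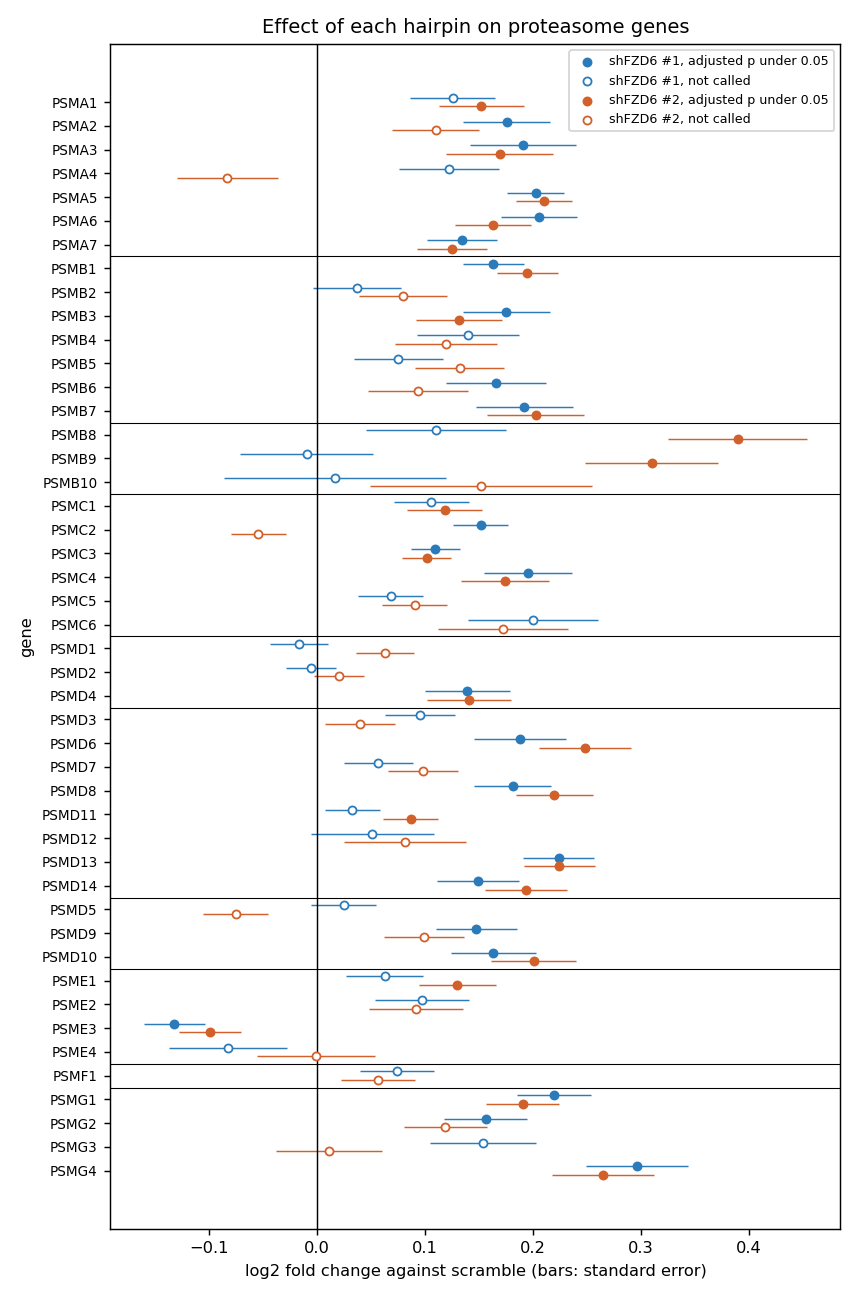
Log2 fold change of shFZD6 #1 (blue) and shFZD6 #2 (orange) against scramble for the 46 tested members in order of role, with bars for the standard error and filled points for limma adjusted p under 0.05. Both hairpins give positive values for most members, and the points are far apart for PSMB8, PSMB9, PSMC2 and PSMA4.

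Compared directly, the hairpins differed in 4 members. With shFZD6 #2 as against shFZD6 #1, PSMB8 and PSMB9 were higher and PSMC2 and PSMA4 lower (1.92% of all tested genes were higher and 4.79% lower), so the share of members was near that of all genes. PSMC2, an ATPase of the base, was at 44.8, 44.7 and 46.3 FPKM in scramble, 49.5, 50.8 and 50.8 with shFZD6 #1, and 43.1, 43.9 and 43.6 with shFZD6 #2. The groups were all apart, with shFZD6 #1 above and shFZD6 #2 below scramble, and the log2 difference between hairpins was -0.21 (SE 0.026, limma adjusted p = 0.00459), called in 21 of 22 alternative settings. The difference lay in the transcript that holds 96.0% of PSMC2 FPKM, which went from 44.4 ± 0.719 in scramble to 48.4 ± 1.01 and 40.7 ± 0.857 (SD, n = 3 each). A minor transcript went the other way between the hairpins, with means of 0.897, 1.94 and 2.78 FPKM in the same order. PSMA4 was at 180, 186 and 188, then 198, 199.8 and 205, then 164, 186 and 173 FPKM, a difference of -0.21 (SE 0.047, limma adjusted p = 0.0425) called in 8 of 22 settings. The PSMB8 difference of 0.28 (SE 0.065, limma adjusted p = 0.0455) was called in 7 of 22 settings and the PSMB9 difference of 0.32 (SE 0.062, limma adjusted p = 0.0239) in 15 of 20. FZD6 itself was lower with shFZD6 #2 than with shFZD6 #1 (-0.25, limma adjusted p = 0.0273). In the same comparison KRT8 was lower (-0.18) and CD68 higher (0.20, limma adjusted p = 0.0231 and 0.0234). Their part in these differences was not tested.

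PSMB9 shares a short intergenic promoter with TAP1, which encodes a subunit of the peptide transporter that supplies MHC class I. TAP1, looked up after the PSMB9 values were seen, was at 10.7, 10.9 and 11.1 FPKM in scramble, 11.1, 11.9 and 12.3 with shFZD6 #1, and 13.4, 13.4 and 13.3 with shFZD6 #2. It too was higher with shFZD6 #2 than with shFZD6 #1 (0.17, SE 0.039, limma adjusted p = 0.042). The interferon regulator IRF1 was at -0.14 in the same comparison and was not called (limma adjusted p = 0.115). The 250 bases before the PSMB9 start are shown because this window lies between the pair (chr6:32853942-32854191, plus strand, RefSeq, GRCh38.p14). Capitals mark a CCAAT box and an antioxidant response element core on the opposite strand.
PSMB9: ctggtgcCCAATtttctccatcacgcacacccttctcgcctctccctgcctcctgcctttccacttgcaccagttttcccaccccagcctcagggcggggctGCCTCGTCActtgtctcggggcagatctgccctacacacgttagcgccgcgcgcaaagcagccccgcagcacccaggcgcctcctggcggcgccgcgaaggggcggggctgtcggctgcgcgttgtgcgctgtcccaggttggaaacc

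Promoter sequence was searched for elements known from subunit genes. RefSeq windows from 250 bases before to 50 after a start were at hand for 42 of the 48 members, 51 windows in all. The core of the antioxidant response element, TGACNNNGC on either strand, was in 15 of 51 member windows (29.4%) and in 13.3% of all 35116 windows. CCAAT on either strand was in 20 of 51 (39.2%) and 34.6% of all. Of the 15 tested members with the antioxidant response element core, 5 rose (PSMB3, PSMC4, PSMD9, PSMG1 and PSMG2) and 10 were not called. Of 19 tested members with CCAAT 10 rose, 1 fell and 8 were not called. Of all 46 tested members 23 rose, a count that takes in members without a window, which could hold no match. A match is a description of the letters and says nothing of binding. Shown with the core in capitals and 10 bases on each side, on the strand of the gene, are examples from members that rose (PSMB3, PSMG1, PSMG2) and from the larger number not called (PSMA4, PSMD3, PSME4).
PSMB3 (chr17:38752627-38752655): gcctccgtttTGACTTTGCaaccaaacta
PSMG1 (chr21:39183616-39183644): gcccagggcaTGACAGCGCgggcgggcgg
PSMG2 (chr18:12658689-12658717): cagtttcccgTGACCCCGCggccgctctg
PSMA4 (chr15:78540650-78540678): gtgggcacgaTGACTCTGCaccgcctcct
PSMD3 (chr17:39980760-39980788): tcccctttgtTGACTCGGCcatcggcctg
PSME4 (chr2:53971009-53971037): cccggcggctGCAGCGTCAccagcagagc

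Interferon-type elements were searched after the PSMB8 and PSMB9 values were seen. The interferon response element core, GAAA and GAAA with any 2 bases between them, was in 7 of 51 member windows (13.7%) and in 3.57% of all windows, with both strands searched. TTCNNNGAA, the gamma-activated site core, was in 8 of 51 (15.7%) and 7.66% of all, and can overlap the former. The first was in windows of PSMA4, PSMB4, PSMB8, PSMB10, PSME1, PSME2 and PSMG4, and the second in a PSMB8 window among others. PSMB9 holds neither in this window. The cores are in capitals, on the strand of the gene, with the second core shown for PSMB8 and the first for the others. Of the 7 members with the first core, PSMB8 and PSME1 were called higher with shFZD6 #2 alone and PSMG4 with both hairpins. PSMA4 was lower with shFZD6 #2 than with shFZD6 #1, and PSMB4, PSMB10 and PSME2 were called in no comparison.
PSMB8 (chr6:32844094-32844122): aactgtccttTTCTCGGAAaaggcagggg
PSMB10 (chr16:67936852-67936881): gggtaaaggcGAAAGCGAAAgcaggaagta
PSME2 (chr14:24146619-24146648): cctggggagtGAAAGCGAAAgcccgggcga
PSMG4 (chr6:3258904-3258933): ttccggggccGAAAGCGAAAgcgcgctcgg

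Other genes of the pathway gave a mixed picture. Of 34 tested genes that assemble, bind, feed or transcribe the proteasome, 8 rose, 1 fell and 25 did not pass in knockdown against scramble. Their median log2 fold change was 0.05. Over all tested genes 13.5% rose and 7.1% fell, with a median of 0.03. After the length trend was removed 2 rose (TXNL1 and UBA6), where 6.64% of all genes did. Of the 9 genes called before, 0 were among the called. Further, 2 rose without scramble replicate 1 or without scramble replicate 2, where 5.81% and 4.65% of all tested genes did. ZFAND2A, a stress-induced zinc finger protein that binds the particle, was at 21.5, 21.3 and 21.8 FPKM in scramble, 27.9, 26.7 and 26.4 with shFZD6 #1, and 26.1, 25.6 and 24.5 with shFZD6 #2 (0.27, SE 0.038, limma adjusted p = 0.00339). RPS27A, a ubiquitin and ribosomal protein fusion, went from 508, 546 and 544 to 607, 606 and 601 and to 592, 643 and 661 FPKM (0.21, SE 0.043), and POMP, which matures the core, from 65.6, 67.3 and 73.3 to 75.3, 78.5 and 80.8 and to 70.9, 79.5 and 82.4 FPKM (0.18, SE 0.054, limma adjusted p = 0.0472), with 1 shFZD6 #2 library inside the scramble range. The ubiquitin gene UBB, the ubiquitin receptor ADRM1, and NFE2L2 were also among those that rose. NFE2L1, the gene for NRF1, was the one that fell, from 58.5, 57.3 and 57.0 FPKM to 53.2, 53.7 and 54.2 with shFZD6 #1 and 54.0, 55.3 and 52.9 with shFZD6 #2, with no overlap (-0.09, SE 0.023, limma adjusted p = 0.0237). With the length trend removed NFE2L1 was at -0.06 and was no longer called (limma adjusted p = 0.111). NRF1 activity is set by cleavage of the protein and was not measured here.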

How the data were processed

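The authors extracted total RNA from DU145 cells, sequenced stranded libraries, aligned them with STAR and deposited Cufflinks FPKM values per RefSeq entry, with confidence bounds, for each library. The submitters' processing notes name hg38 and the methods mm10; the entries are human, with hg38 alternate contigs. Raw counts were not used here, so no count model could be fitted. FPKM were summed per gene over all its entries (83497 per library, 72645 of 73240 accessions matched to a symbol), and 42 genes with a failed estimate in any library were left out, ECPAS among them. No 2 libraries held identical values.

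Values were tested as log2(FPKM + 1) for genes whose mean over the libraries reached 1 FPKM, with limma 3.58.1 in R 4.3.3, Benjamini-Hochberg adjusted over 12509 genes. Fold changes are on that scale, which understates changes of low genes. Knockdown (6 libraries) was compared with scramble (3), and the hairpins in a model of 3 groups. Members are named by role: the 3 largest called changes in each of 10 role groups, both subunits of each catalytic pair, and all activators. Pathway genes are named by the 3 largest rises and falls. Alternatives were the pseudocount (0.1, 0.01), the minimum (none, 5 FPKM), median centring, quantile normalization, removal of a lowess trend on transcript length, entries on primary chromosomes or protein-coding alone, the study's criteria, a replicate block, only the groups compared, and leaving out each library. The files list no transcript lengths, so GENCODE 29 lengths were used, weighted by FPKM, and 214 genes without one were left out of that fit. The scripts were tested on simulated data. Depth was estimated from the confidence bounds of low genes. The members and lists were chosen with earlier results of these data known. Values of some marker and pathway genes are not reported here.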

Additional observations from a re-analysis of the deposited data

Results flagged for a closer look

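The difference between the hairpins was itself tested and passed for 4 members, as shFZD6 #2 minus shFZD6 #1 on the log2 scale: PSMA4 at -0.21, PSMC2 at -0.21, PSMB8 at 0.28 and PSMB9 at 0.32. Of all tested genes 1.92% were higher and 4.79% lower, so the share of members was near that of all genes. The call was kept in 8 of 22 alternative settings for PSMA4 and 21 of 22 for PSMC2. For PSMB8 it was kept in 7 of 22 and for PSMB9 in 15 of 20.

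A library far from the other 5 of its 6 knockdown libraries was found in 5 of 51 measures, where chance gives about 1 in 20. This rate is a rough guide, since the 6 libraries mix both hairpins and measures that share a gene are not independent. PSMB10 was at 11.7 FPKM in shFZD6 #2 replicate 3, against at most 8.98 in the others, and the PSMB10 share of PSMB7 plus PSMB10 was 3.71% in that library, against at most 3.11%. PSMD12 was at 31.5 FPKM in shFZD6 #2 replicate 2, against at most 28.2. PSMB4 was at 428 FPKM in shFZD6 #2 replicate 2, against at least 466.4, and PSMA2 at 85.9 FPKM in shFZD6 #2 replicate 1, against at least 91.7.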

How the results depend on the processing

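Members called higher in knockdown against scramble (23 as reported), with shFZD6 #1 (22) and with shFZD6 #2 (23) numbered 6, 5 and 8 with the length trend removed, 11 and 8 for the first and second with quantile normalization, and 1, 1 and 2 by the study's criteria. Of all tested genes 6.64%, 6.12% and 11.4% were called higher with the length trend removed. The shares were 8.37% and 6.61% with quantile normalization, and 1.1%, 1.47% and 1.49% by the study's criteria. Fitting only the groups compared gave 13 with shFZD6 #2, where 9.15% of all tested genes rose, and was not run for the comparison of 6 with 3 libraries. Members lower with shFZD6 #2 (1) numbered 3 with the length trend removed or with quantile normalization and 0 with median centring, with only the groups compared and by the study's criteria, which also gave 0 lower in the other 3 comparisons. Of all tested genes 12.4%, 12.7%, 11.8%, 7.78% and 3.22% were lower with shFZD6 #2 in these settings, in the same order. Members that differed between the hairpins (2 higher, 2 lower) numbered 1 higher with a pseudocount of 0.01, no filter, a minimum of 5 FPKM, median centring, quantile normalization, primary chromosomes and the study's criteria, and 0 higher with only the groups compared. They numbered 1 lower with no filter, quantile normalization, the length trend removed and only the groups compared. Of all tested genes 0.312% to 2.61% were higher in the settings named for higher members. In those named for lower members, 2.19% to 6.14% were lower. Pathway genes (8 higher, 1 lower) numbered 2 and 0 with the length trend removed (0 of the 9 called before kept their call), 1 and 4 with quantile normalization, 1 and 0 by the study's criteria, and 2 lower with no filter, a minimum of 5 FPKM or median centring.

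Libraries with the same number did not deviate together (9 pairs, r from -0.07 to 0.11), so they were treated as unpaired. With a replicate block 24 members were higher in knockdown, 26 with shFZD6 #1 and 24 with shFZD6 #2, 0 were lower with shFZD6 #2 and 0 were higher with shFZD6 #2 than with shFZD6 #1. Of all tested genes these shares were 12.3%, 12.2%, 16.2%, 12.3% and 1.94% in the same order. With the block and the length trend removed the counts were 4, 6 and 8 higher, 3 lower with shFZD6 #2, 1 higher and 1 lower between hairpins, and 2 higher and 0 lower among pathway genes. Of all genes in that fit 4.66%, 5.12% and 11.3% were higher and 12.3% lower with shFZD6 #2. Between hairpins 3.13% were higher and 5.62% lower.

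Leaving out 1 library gave 12 to 27 members higher and 0 to 1 lower in knockdown, 7 to 28 and 0 to 1 with shFZD6 #1, 11 to 25 and 0 to 2 with shFZD6 #2, 0 to 2 and 1 to 2 between hairpins, and 2 to 9 and 0 to 2 among pathway genes. The shares of all tested genes called higher were 4.65% to 16.1%, 4.24% to 17.3%, 8.72% to 18% and 0.504% to 2.79% in the same 4 comparisons. Those called lower were 2.77% to 9.75%, 2.82% to 10.9%, 7.73% to 15.5% and 2.08% to 6.5%.

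Log2 fold changes that were not called and changed sign in knockdown against scramble were, with the length trend removed, with or without the block, PSMA4 (-0.090), PSMB10 (-0.015), PSMC5 (-0.0025), PSME1 (-0.013), PSME4 (0.045) and PSMG3 (-0.027). With quantile normalization they were PSMA4 (-0.039), PSMC2 (-0.0073), PSMD1 (-0.025) and PSMD2 (-0.058). PSMD1 was at -0.14 with protein-coding entries. Leaving out 1 library gave -0.0066 (without shFZD6 #1 replicate 3) to 0.057 for PSMA4, and -0.043 to 0.040 for PSMB9 with shFZD6 #1. The cause of these changes was not tested. The tables hold no counts, there are 3 libraries a group, and the assigned transcript lengths are uncertain for PSMC1, PSME3, PSMA5 and PSMG4.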
